A study of Homo sapiens with 6 samples.

Results

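CD96 was followed here together with 3 receptors of the same family (TIGIT, CD226, CRTAM) and the 5 surface proteins that such receptors or each other bind, PVR and the nectins NECTIN1 to NECTIN4. The rows were taken by gene symbol, and each of the 9 genes had 1 row, so the set held 9 of the 33297 rows on the array. CD96 was picked because its signal was lower than in control clones with both hairpins, and the other 8 genes were picked for their known relation to it. The differences of CD96 between groups are therefore given as a description with no test, whereas the tests of the other 8 genes, called partner genes below, used all 21214 rows that carry a gene symbol.

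The cells were MDA-MB-231, an established human breast cancer line that lacks hormone receptors. They carried TIP-1 shRNA 159 (clones A1 and A4), TIP-1 shRNA 162 (clones B1 and B4) or a control shRNA (2 clones), and all were grown in RPMI 1640 with serum, reseeded after trypsin and lysed after a night in culture. Each of the 6 clones was read on 1 Affymetrix Human Gene 1.0 ST array, so n = 2 clones per group, and a clone can carry differences of its own that the hairpin did not make. TIP-1 is the PDZ-domain protein encoded by TAX1BP3. Of the line's marker genes, the 10 high ones, VIM, CD44, KRT8 and KRT18 among them, read between 10.21 and 13.41 on the log2 scale on every array. Of the 5 low ones, ESR1, PGR and CDH1 lay below the lower quartile of the tested rows on all 6 arrays, but ERBB2 (7.80 to 8.19) and EPCAM (7.01 to 8.02) did not. EPCAM, an epithelial adhesion molecule, read 7.97 and 8.02 in shRNA 159 clones and 7.16 and 7.25 in shRNA 162 clones, against 7.01 and 7.09 in control clones, and rose by 0.94 with shRNA 159 (limma adjusted p = 0.00086). KRT8 fell by 0.44 with shRNA 162 (limma adjusted p = 0.0266), a call lost without control clone 1 or either shRNA 162 clone. The part of these genes in the results was not tested.

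CD96, also called TACTILE, is an immunoglobulin-family receptor best known from T cells and natural killer (NK) cells, where it binds PVR (CD155, the poliovirus receptor) on the opposite cell. TIGIT, an inhibitory receptor, and CD226 (DNAM-1), an activating one, compete for PVR and NECTIN2 (CD112), and CRTAM binds the nectin-like protein CADM1. Nectins are adhesion molecules that pair across cell contacts and are tied to the actin cytoskeleton by afadin. In an epithelial tumour line the ligands are the usual surface proteins of this system and the receptors are not.

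The start regions of the gene that moved (CD96), of its nearest upstream neighbour on the chromosome (NECTIN3) and of its main ligand (PVR) are shown because they are of different kinds. Each holds 250 bases before and 50 bases after the RefSeq start in GRCh38.p14, on the plus strand, at chr3:111541947-111542246 for CD96, chr3:111071566-111071865 for NECTIN3 and chr19:44643660-44643959 for PVR. Capitals mark GGGCGG (GC box) and TGTGGT (RUNX core), on either strand.
CD96: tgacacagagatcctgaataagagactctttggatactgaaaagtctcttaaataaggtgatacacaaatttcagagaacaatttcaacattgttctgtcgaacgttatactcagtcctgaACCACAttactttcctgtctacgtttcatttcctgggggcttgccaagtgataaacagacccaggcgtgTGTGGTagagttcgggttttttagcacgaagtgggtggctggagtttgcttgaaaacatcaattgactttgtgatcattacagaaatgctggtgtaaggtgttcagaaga
NECTIN3: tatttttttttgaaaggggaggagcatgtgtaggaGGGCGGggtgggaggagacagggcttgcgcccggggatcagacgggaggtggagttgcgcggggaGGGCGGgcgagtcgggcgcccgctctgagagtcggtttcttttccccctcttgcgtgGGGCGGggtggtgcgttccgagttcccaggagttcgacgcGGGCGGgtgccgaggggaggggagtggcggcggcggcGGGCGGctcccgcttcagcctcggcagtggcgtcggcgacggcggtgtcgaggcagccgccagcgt
PVR: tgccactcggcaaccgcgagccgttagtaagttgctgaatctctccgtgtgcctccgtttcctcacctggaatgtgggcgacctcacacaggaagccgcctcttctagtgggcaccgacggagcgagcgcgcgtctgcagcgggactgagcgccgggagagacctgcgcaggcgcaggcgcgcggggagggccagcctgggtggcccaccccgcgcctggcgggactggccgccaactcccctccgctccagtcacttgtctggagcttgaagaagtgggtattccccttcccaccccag

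The CD96 region had a GC content of 41.0% and 6 CpG pairs, against 70.3% and 36 for NECTIN3 and 67.3% and 27 for PVR, where the median of 35116 RefSeq start regions was 58.7% and 14. TIGIT, the other receptor gene on chromosome 3, was like CD96, with 42.0% and 6. CD96 held 2 TGTGGT matches, a sequence found in 13.1% of all start regions, and TIGIT held 1. NECTIN3 held 5 matches of GGGCGG, found in 45.0% of all, NECTIN2 held 3 and NECTIN4 held 2. Of the 2 listed start regions of CD226, 1 held 1 match, whereas CD96, TIGIT and PVR held 0. None of the 7 members with a start sequence in the table held TATAAA (11.5% of all start regions). CTTTGA (the TCF/LEF core, 12.9% of all) and TGANTCA (the AP-1 site, 7.71% of all) were found in CD226 alone, in 1 each of its 2 listed start regions. These matches describe the sequence and do not show that a factor binds there.

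The targeted gene was measured first. TAX1BP3 read 10.40 and 10.40 in shRNA 159 clones and 9.85 and 10.01 in shRNA 162 clones, against 11.65 and 11.56 in control clones (log2 signal). It fell by 1.20 with shRNA 159 (limma adjusted p = 0.00034) and fell by 1.67 with shRNA 162 (limma adjusted p = 4.4e-05). The row is shared with the readthrough transcript P2RX5-TAX1BP3.

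CD96 read lower in all 4 shRNA clones, at nearly the same dim signal with either hairpin. The CD96 row (probe set 8081564) read 6.33 and 6.44 in shRNA 159 clones and 6.35 and 6.39 in shRNA 162 clones, against 7.48 and 7.82 in control clones. The groups did not overlap: the highest shRNA clone lay 1.04 below the lowest control clone. The widest spread within a group was that of the control clones, which differed by 0.34, whereas the shRNA 159 clones differed by 0.11 and the shRNA 162 clones by 0.04.

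**Figure D1:**
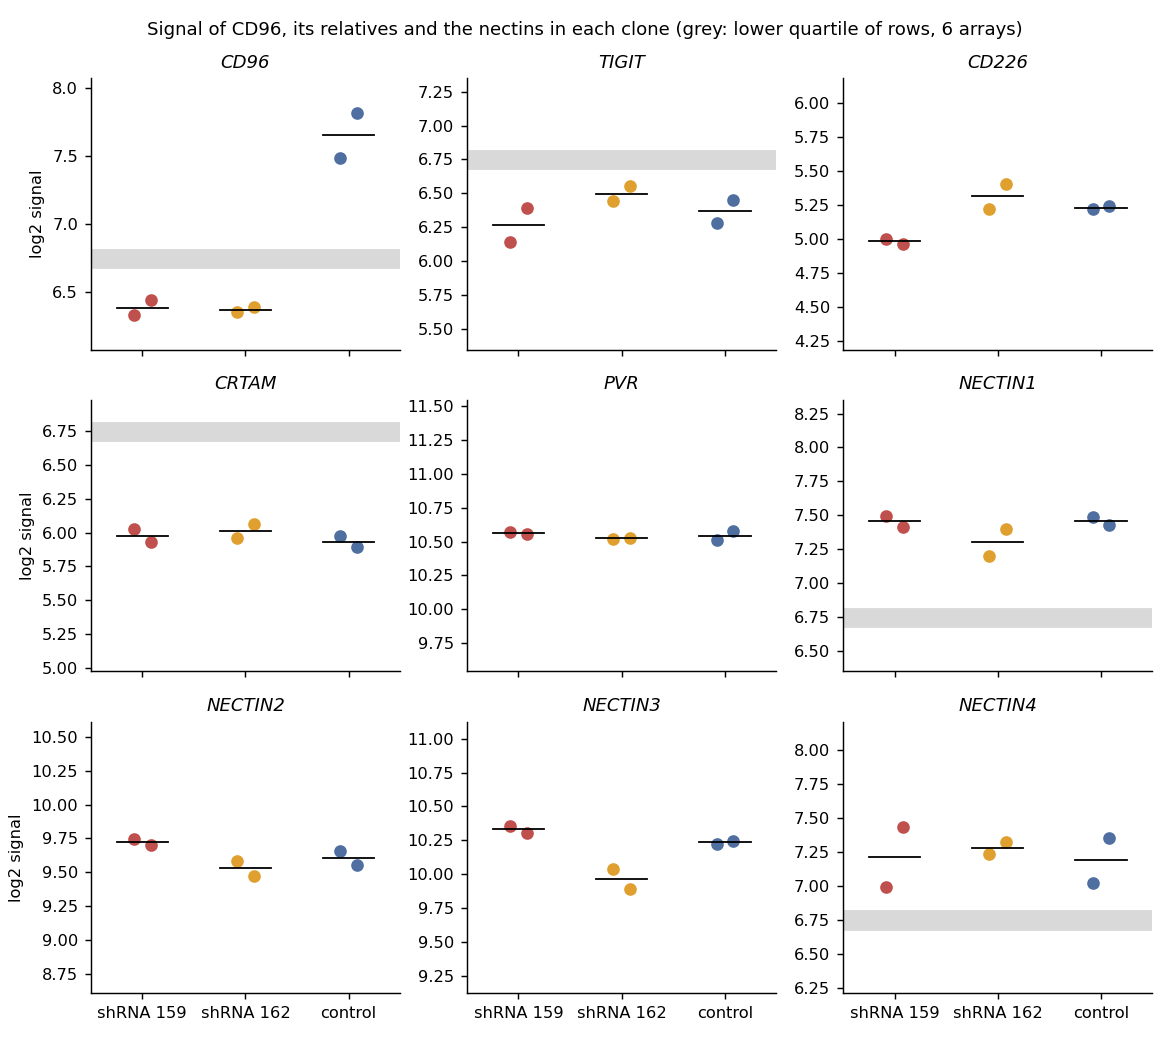
Log2 signal of the 9 genes in each clone. Points are clones, bars are group means (n = 2), every panel spans 2 log2 units, and the grey band is the range of the lower quartile of tested rows over the 6 arrays (6.68 to 6.81). CD96 is the gene whose shRNA clones, at 6.33 to 6.44, stand apart from its control clones at 7.48 and 7.82.

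The mean of CD96 was 6.38 ± 0.08 in shRNA 159 clones, 6.37 ± 0.03 in shRNA 162 clones and 7.65 ± 0.24 in control clones (SD, n = 2 each). The difference from control was -1.27 with shRNA 159 (SE 0.11, 95% interval -1.53 to -1.01) and -1.28 with shRNA 162 (SE 0.11, 95% interval -1.54 to -1.03), on the log2 scale. These are signals 2.41-fold and 2.44-fold lower than in control clones. The intervals do not allow for the choice of CD96 by this same difference. Among the 21214 tested rows the CD96 difference was the number 6 from the bottom with shRNA 159 and the number 23 with shRNA 162, which describes how the gene came to be chosen.

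The control clones stood above the lower quartile of every array, between the percentiles 41.5 and 47.9 of the tested rows, whereas the 4 shRNA clones stood below it, between 16.9 and 18.7. A row this dim was not shown to be above background, so the size is a difference in array signal and not an exact change in transcript level. In these bulk samples fewer cells with CD96 RNA and less CD96 RNA per cell cannot be told apart.

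The CD96 difference of shRNA 159 minus shRNA 162 was 0.01 on the log2 scale, with a 95% interval of -0.24 to 0.27. It too is a description, since CD96 was picked for being low with both hairpins. All 4 shRNA readings lay below the lower quartile, so like signals do not show like transcript levels. TAX1BP3 itself was 0.47 higher with shRNA 159 than with shRNA 162 (limma adjusted p = 0.013), a call lost without shRNA 162 clone 1 (adjusted p = 0.101).

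The other 3 receptors were dim and did not pass against control. TIGIT read 6.14 and 6.39 in shRNA 159 clones and 6.44 and 6.55 in shRNA 162 clones, against 6.28 and 6.45 in control clones, and these ranges overlapped. CRTAM, which helps polarise activated T cells, read 6.03 and 5.93 in shRNA 159 clones and 5.96 and 6.06 in shRNA 162 clones, against 5.97 and 5.89 in control clones. All 3 receptor rows lay below the lower quartile on all 6 arrays, so their presence in these cells was not shown.

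CD226 read 5.0 and 4.96 in shRNA 159 clones and 5.22 and 5.41 in shRNA 162 clones, against 5.22 and 5.25 in control clones. The shRNA 159 clones were the low ones. CD226 differed by -0.25 between shRNA 159 and control (95% interval -0.45 to -0.05, limma adjusted p = 0.223) and did not pass. CD226 was 0.33 lower on the log2 scale with shRNA 159 than with shRNA 162 (difference -0.33, SE 0.09, limma adjusted p = 0.0499). That call rested at the threshold: it was lost after quantile normalization (limma adjusted p = 0.124) and with only the 4 arrays compared (0.0847). Leaving out a control clone gives that same 4-array fit. The call was also lost without any 1 shRNA clone, in fits with fewer residual degrees of freedom, where the difference ran from -0.42 to -0.24.

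Among the 9 genes PVR had the narrowest range over the arrays. PVR read 10.57 and 10.55 in shRNA 159 clones and 10.52 and 10.53 in shRNA 162 clones, against 10.51 and 10.58 in control clones, a range of 0.07 over all 6 arrays. The difference from control was 0.02 with shRNA 159 (95% interval -0.15 to 0.19, limma adjusted p = 0.935) and -0.02 with shRNA 162 (-0.19 to 0.15, limma adjusted p = 0.904). The row was among the brighter ones, between the percentiles 89.4 and 90.4 of the tested rows.

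NECTIN2, the shared ligand of TIGIT and CD226, read 9.75 and 9.70 in shRNA 159 clones and 9.59 and 9.48 in shRNA 162 clones, against 9.66 and 9.55 in control clones. The shRNA 159 clones were the highest and the shRNA 162 clones overlapped with control. NECTIN2 missed the threshold against control (adjusted p = 0.577 for shRNA 159 and 0.623 for shRNA 162, limma) or between the hairpins (difference 0.19, limma adjusted p = 0.19).

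NECTIN3, which pairs with the other nectins across junctions, read 10.36 and 10.30 in shRNA 159 clones and 10.04 and 9.89 in shRNA 162 clones, against 10.23 and 10.25 in control clones. The shRNA 162 clones were lowest and the shRNA 159 clones highest, an order whose share over all tested rows was not counted. NECTIN3 differed from control by 0.09 with shRNA 159 (95% interval -0.09 to 0.28, limma adjusted p = 0.659) and by -0.27 with shRNA 162 (95% interval -0.46 to -0.08, limma adjusted p = 0.0773), and neither passed. After quantile normalization (-0.32, adjusted p = 0.0424) or among the brighter rows alone (adjusted p = 0.0182) the shRNA 162 difference passed. The fit of brighter rows tested fewer rows, yet 3090 passed there with shRNA 162, against 2019 in the main fit. A pass was thus more common in it. Between the hairpins NECTIN3 was 0.36 higher with shRNA 159 (SE 0.08, limma adjusted p = 0.0305), a 1.29-fold difference. That call was lost with only the 4 arrays compared (limma adjusted p = 0.0579), which is also the fit without a control clone. The call was lost as well without any 1 shRNA clone, in fits with fewer residual degrees of freedom, where the difference ran from 0.29 to 0.44.

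NECTIN1, a junction protein and entry receptor of herpes simplex virus, read 7.50 and 7.41 in shRNA 159 clones and 7.20 and 7.40 in shRNA 162 clones, against 7.49 and 7.43 in control clones. NECTIN4, found in placenta and many carcinomas, read 6.99 and 7.43 in shRNA 159 clones and 7.24 and 7.33 in shRNA 162 clones, against 7.02 and 7.36 in control clones. NECTIN4 was the least precise member, with an SD of 0.31 in shRNA 159 clones and of 0.24 in control clones, and its intervals against control ran from -0.33 to 0.38 with shRNA 159 and from -0.26 to 0.45 with shRNA 162. Neither gene passed in a comparison (limma adjusted p 0.319 or higher).

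**Figure D2:**
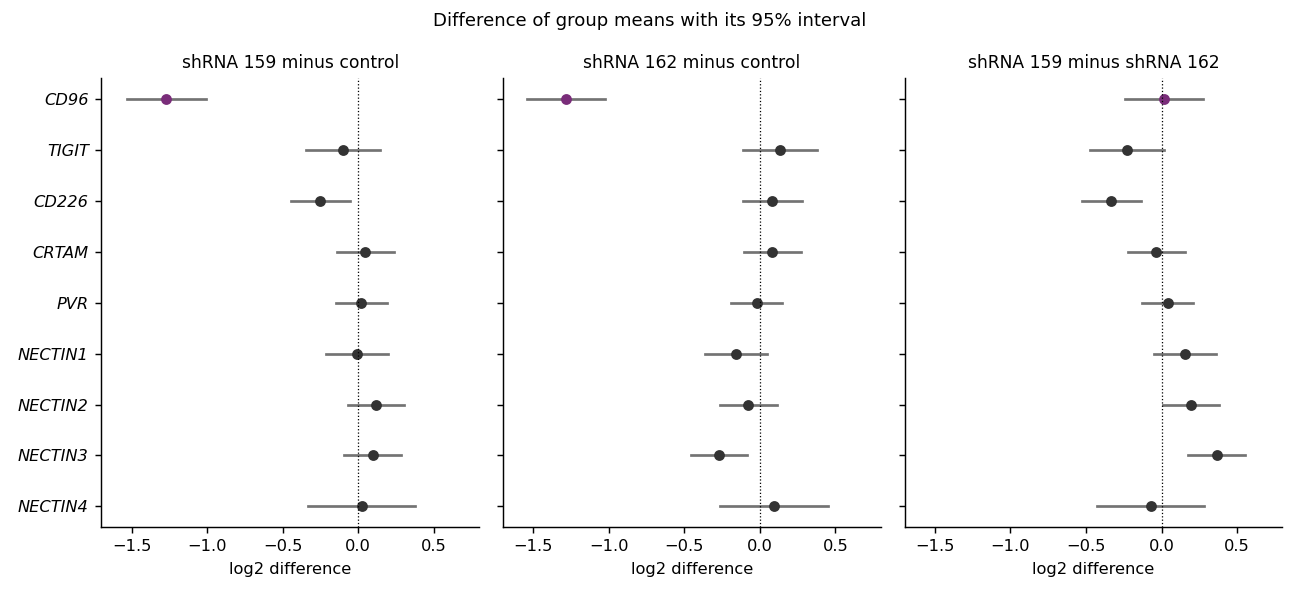
Differences of group means (points, log2) with 95% limma intervals (lines) for the 9 genes in each comparison, n = 2 clones per group. Against control the CD96 intervals end at -1.01 and -1.03, and those of the 8 partner genes lie between -0.46 and 0.45. CD96 was chosen for this difference, so its intervals are a description and no test.

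Counted together, 0 of 8 partner genes passed with shRNA 159 minus control, where 2.53% of all tested rows passed. With shRNA 162 minus control 0 of 8 passed, where 9.52% of rows did. For the mean of both hairpins minus control 0 of 8 passed, where 4.62% did (3.01% higher and 1.61% lower). At an unadjusted p under 0.05 the limma counts were 1 of 8 (CD226), 1 of 8 (NECTIN3) and 0 of 8, where 14.1%, 25.1% and 19.8% of all tested rows lay under that p. In the median the partner genes differed from control by 0.02 with shRNA 159 and 0.03 with shRNA 162, beside -0.01 and 0.02 over all tested rows. For shRNA 159 minus shRNA 162, 2 of 8 passed (NECTIN3 higher, CD226 lower), where 8.65% of all rows passed (4.02% higher and 4.64% lower). The comparisons with control share the control clones.

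The 5 genes whose pattern over the 6 arrays was closest to that of CD96 were RGS4, a regulator of G protein signalling, HAS2, a hyaluronan synthase, PSG4, a pregnancy-specific glycoprotein, SERPINB9, the granzyme B inhibitor, and AOX1, an aldehyde oxidase. Likeness was the root mean square difference on the log2 scale after each row was set to 0 at its control mean, over 16902 protein-coding genes. It was 0.22 for RGS4, 0.24 for HAS2, 0.26 for PSG4, 0.26 for SERPINB9 and 0.27 for AOX1. They were chosen by their values and get no test.

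RGS4 read 7.13 and 7.10 in shRNA 159 clones and 6.84 and 6.63 in shRNA 162 clones, against 8.30 and 8.39 in control clones. HAS2 read 7.38 and 7.23 in shRNA 159 clones and 7.40 and 7.01 in shRNA 162 clones, against 8.67 and 8.83 in control clones. AOX1 read 8.56 and 8.43 in shRNA 159 clones and 8.37 and 8.39 in shRNA 162 clones, against 9.48 and 9.39 in control clones. Like CD96, these genes were low in all 4 shRNA clones with no overlap, which their choice by likeness to CD96 made likely.

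SERPINB9 read 6.87 and 6.94 in shRNA 159 clones and 7.41 and 7.37 in shRNA 162 clones, against 8.60 and 8.45 in control clones, and PSG4 differed from control by -0.87 with shRNA 159 and -1.17 with shRNA 162. PSG4 belongs to a family of near-identical copies, so its identity is uncertain. None of the 8 partner genes came close to the pattern: the closest, NECTIN1, ranked 4428 of 16902 with a difference of 0.99. A gene that hardly moved lies about as far, as PVR did at 1.05, so these ranks add nothing to the differences from control.

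**Figure D3:**
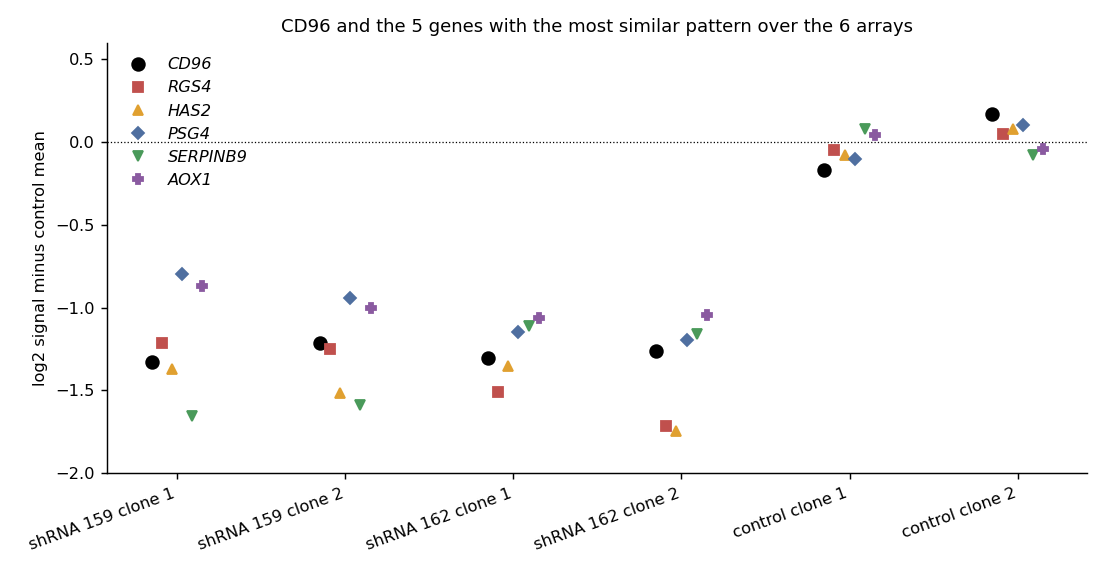
Log2 signal minus the control mean of the same gene, in each clone, for CD96 and the 5 genes with the smallest root mean square difference from it (0.22 to 0.27). All 6 genes are lower in the 4 shRNA clones than in the control clones, and SERPINB9 is lower with shRNA 159 while RGS4 is lower with shRNA 162.

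CD96 and NECTIN3 lie next to each other on chromosome 3 (GRCh38.p14), with CD96 at chr3:111542197-111665996 and NECTIN3 at chr3:111071816-111194170, a gap of 348 kb. ZBED2, a zinc finger gene, lies within the span of CD96 at chr3:111592900-111595346. ZBED2 read 7.62 and 7.90 in shRNA 159 clones and 8.07 and 7.93 in shRNA 162 clones, against 7.87 and 7.93 in control clones. ZBED2 missed the threshold (adjusted p = 0.606 for shRNA 159 and 0.633 for shRNA 162, limma). PLCXD2, a phospholipase-like gene that starts 8.68 kb beyond CD96, differed from control by 0.11 and 0.06 and did not pass either (limma adjusted p = 0.656 and 0.756). DPPA4, a pluripotency-associated gene on the far side of NECTIN3 and 2203 kb from CD96, differed by -0.23 and -0.16 (limma adjusted p = 0.258 and 0.276).

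Of the 10 protein-coding genes with a row on each side of CD96, 1 rose and 0 fell with shRNA 159 (1.69% of all rows passed higher and 0.839% lower), and 1 rose and 0 fell with shRNA 162 (5.88% and 3.64%). The gene that rose was PHLDB2, which encodes LL5beta, a protein of the cell cortex that anchors microtubule ends, and which lies 66.5 kb beyond CD96. PHLDB2 read 8.86 and 8.81 in shRNA 159 clones and 8.93 and 8.93 in shRNA 162 clones, against 8.36 and 8.33 in control clones. It rose by 0.49 with shRNA 159 (SE 0.07, limma adjusted p = 0.011) and by 0.58 with shRNA 162 (SE 0.07, limma adjusted p = 0.0029). The shRNA 159 call was lost without control clone 1, control clone 2 or shRNA 159 clone 1 (adjusted p up to 0.11). The median over the 20 neighbours was -0.02 with shRNA 159 and 0.07 with shRNA 162, and 0 of the 20 passed as lower with either hairpin. The genes beyond NECTIN3 lie 2203 to 2991 kb from CD96, so that side hardly samples the near region. On the other side the farthest gene, CD200, lies 667 kb away.

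**Figure D4:**
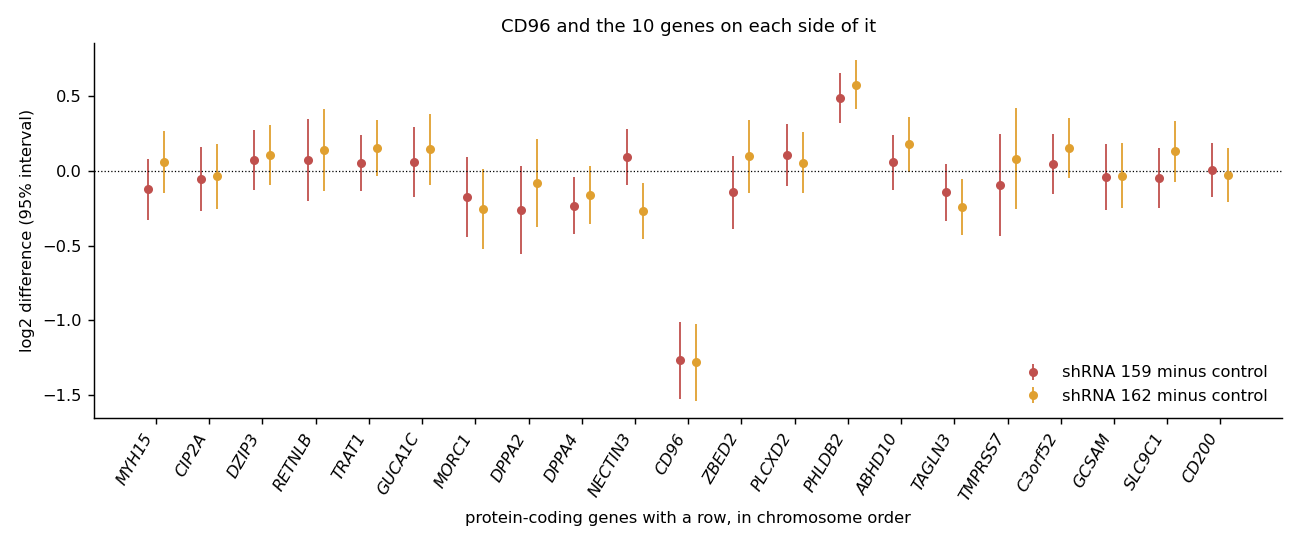
Log2 differences from control (points) with 95% limma intervals for CD96 and the 10 protein-coding genes with a row on each side, in chromosome order, for each hairpin. CD96 lies at -1.27 and -1.28, PHLDB2 at 0.49 and 0.58, and the other 19 genes between -0.27 and 0.18.

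The context was read from 4 lists: junction genes around the nectins, other ligands of NK and T cell receptors, signalling partners of the receptors, and leukocyte markers. Of the nectin-like and junction genes 19 of 22 had a row of their own. With shRNA 159 minus control 0 of 19 passed, where 2.53% of all rows did, and with shRNA 162 2 of 19 passed, where 9.52% did, a share near that of all rows. With shRNA 162 CADM1, the CRTAM ligand, rose by 0.30 (limma adjusted p = 0.0475), and the integrin subunit ITGB3 fell by 0.49 (limma adjusted p = 0.0169). Both differed between the hairpins, CADM1 by -0.48 (adjusted p = 0.0084, lost without shRNA 162 clone 1 at 0.0729) and ITGB3 by 0.77 (adjusted p = 0.0029) for shRNA 159 minus shRNA 162. AFDN, which encodes afadin, read 8.45 and 8.36 in shRNA 159 clones and 8.40 and 8.44 in shRNA 162 clones, against 8.36 and 8.43 in control clones. The median of the list was -0.02 with shRNA 159 and 0.02 with shRNA 162.

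Of the other ligands of NK and T cell receptors 32 of 34 were measured. With shRNA 159, 2 of 32 rose and 0 fell, where 1.69% of all rows passed higher and 0.839% lower. CD274, the PD-1 ligand PD-L1, rose by 1.05 (SE 0.08, limma adjusted p = 0.0007), and ICAM1, the ligand of LFA-1, rose by 0.45 (limma adjusted p = 0.0454). With shRNA 162, 1 of 32 rose and 2 fell, where 5.88% of all rows passed higher and 3.64% lower, together a share near that of all rows. CD86, a dim row, rose by 0.37 (limma adjusted p = 0.0491), CLEC2B, the ligand of NKp80 and also dim, fell by 0.87 (limma adjusted p = 0.0083), and PDCD1LG2, the other PD-1 ligand, fell by 0.56 (limma adjusted p = 0.0381). CD274 read 9.91 and 9.79 in shRNA 159 clones and 8.89 and 8.75 in shRNA 162 clones, against 8.81 and 8.78 in control clones, so the shRNA 159 clones alone were high. Of the NKG2D ligands in the list, MICA, MICB, ULBP2 and ULBP3 did not pass against control, ULBP2 with shRNA 162 being the nearest of these (-0.30, limma adjusted p = 0.0501). RAET1E, another of them, differed by -0.12 with shRNA 159 and by 0.39 with shRNA 162 (limma adjusted p = 0.68 and 0.0586). It did not pass either, nor did the remaining NKG2D ligands of the list against control. The list's median was -0.05 with shRNA 159 and -0.03 with shRNA 162.

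Of the signalling partners 11 of 13 were measured. The kinase FYN, which phosphorylates CD226, fell by 0.46 with shRNA 162 (limma adjusted p = 0.0153), so 1 of 11 passed, where 9.52% of all rows did. With shRNA 159 0 of 11 passed, where 2.53% of all rows did. The list's median was -0.05 with shRNA 159 and 0.01 with shRNA 162.

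Of the T, NK and other leukocyte markers 33 of 36 were measured, and 11 of them lay below the lower quartile on all 6 arrays, among them PTPRC (CD45) and CD3E. Most of the 33 did not, IL2RB among them, so the list as a whole was not shown to be absent. The mean log2 signal of the 33 was 6.73 to 6.91 in shRNA 159 clones, 6.86 to 6.87 in shRNA 162 clones and 6.84 to 6.92 in control clones, ranges that overlapped. With shRNA 159 minus control 0 of 33 passed, where 2.53% of all rows did, and with shRNA 162 3 of 33 passed, where 9.52% did, a share near that of all rows. With shRNA 162, KLRF1 rose by 0.49 and GZMA rose by 0.31 (limma adjusted p = 0.0144 and 0.0492), both dim rows, and IL2RB, an interleukin receptor subunit, fell by 1.02 (limma adjusted p = 0.00087). IL2RB read 8.95 and 9.06 in shRNA 159 clones and 7.76 and 8.0 in shRNA 162 clones, against 8.87 and 8.93 in control clones, so the shRNA 162 clones alone were low.

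**Figure D5:**
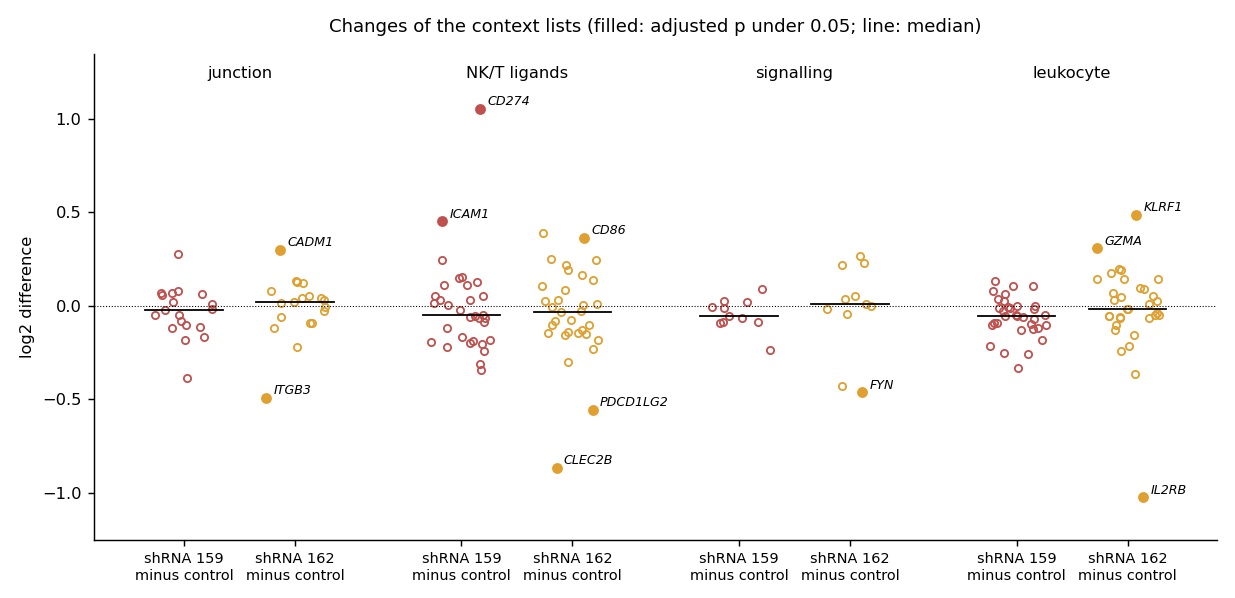
Log2 difference from control of each measured gene of the 4 lists, by hairpin. Filled points have a limma adjusted p under 0.05 and are named, and black lines are list medians (-0.05 to 0.02). CD274 at 1.05 with shRNA 159 and IL2RB at -1.02 with shRNA 162 are the farthest from 0.

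Without any 1 of the 4 arrays compared, the shRNA 162 calls of CADM1, CD86, PDCD1LG2, FYN, KLRF1 and GZMA were lost. That of ITGB3 was lost without either control clone or shRNA 162 clone 1, and that of CLEC2B without shRNA 162 clone 1. The ICAM1 call with shRNA 159 was lost without any 1 of the 4 arrays compared. It was also lost with only those 4 arrays, which is the fit without an shRNA 162 clone. CD274 with shRNA 159 and IL2RB with shRNA 162 passed on leaving out each of the 6 arrays in turn.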

How the data were processed

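For every probe set the authors deposited a log2 signal made with the Affymetrix Exon Array Computational Tool, per the labels of the series. The settings of that tool are not known here. The values ran from 2.29 to 14.65, which is the basis for reading them as log2. Arrays have no count depth, and their number limits the precision. Detection calls and probe-level data were not used here.

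Gene symbols were taken from the annotation of the array platform: 19460 rows had 1 symbol, 1754 several and 12083 none. Where a gene had more than 1 row, the row with the highest mean was used. Rows with a symbol were fitted with limma 3.58.1 in R 4.3.3 (lmFit, eBayes, 3 groups, 3 residual and 5.31 prior degrees of freedom), without further scaling. Tests were two-sided, and to pass a row needed an adjusted p (Benjamini-Hochberg, 21214 rows) below 0.05. Intervals are unadjusted. All 9 members were tested rows, and no filter on low values was used. The labels call the clones independent, and p-values measure the spread between them.

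Named genes are the members, TAX1BP3, the nearest neighbours of CD96 and those that passed, the 5 genes most like CD96, and up to 4 passing genes per list and comparison, with AFDN, MICA, MICB, ULBP2 and ULBP3 added after their values were seen. The correlation with CD96 planned beside the likeness is not given, since the arrays fall into separate clusters. Members and lists were chosen with earlier results of these data known. Neighbours come from RefSeq GRCh38.p14, start sequences too (7 of 9 members matched). Figures were drawn with matplotlib 3.10.9.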

Additional observations from a re-analysis of the deposited data

Results flagged for a closer look

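Counted without the genes chosen by likeness to CD96, 19 named genes differed between the hairpins by the limma test (adjusted p under 0.05). Their differences are given here as shRNA 159 minus shRNA 162 on the log2 scale. Over all tested rows 8.65% passed, and the list genes were mostly named because they passed in a comparison, so the number is no result about them. Of the 19 calls, 5 passed on leaving out each of the 6 arrays in turn: IL2RB at 1.13, CD274 at 1.03, EPCAM at 0.79, ITGB3 at 0.77 and ICAM1 at 0.68. The other 14 were lost without at least 1 array. Among these, higher with shRNA 159 were PDCD1LG2 at 0.80, FYN at 0.48, TAX1BP3, the targeted gene, at 0.47, TGFBI at 0.37 and NECTIN3 at 0.36. Lower with shRNA 159 were RAET1E at -0.51, KLRF1 at -0.49, CADM1 at -0.48, KLRD1 at -0.45, CD86 at -0.43, GZMA at -0.40, CTNNA1 at -0.40, PIK3R1 at -0.36 and CD226 at -0.33.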

How the results depend on the processing

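As the shRNA and control clones did not overlap, the CD96 difference from control could not change direction on leaving out 1 array. It kept its direction in the other alternatives, of which only quantile normalization changed its size. Without 1 array it ran from -1.44 to -1.10 with shRNA 159, from -1.45 to -1.12 with shRNA 162 and from -1.45 to -1.11 for the mean of both, with both ends of each range reached by leaving out a control clone. Between the hairpins it ran from -0.04 to 0.07. In the other alternatives it stayed between -1.30 and -1.21. CD96 is too dim to have a value among the brighter rows.

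With shRNA 162 minus control 0 of 8 partner genes passed, but 1 (NECTIN3) after quantile normalization and 1 among the brighter rows, where 3 were left to test. Between the hairpins 2 passed, but 1 (NECTIN3) after quantile normalization, 1 (NECTIN3) among the brighter rows and 0 with only the 4 arrays compared. Leaving out a control clone gives that same 4-array fit between the hairpins. With either hairpin or their mean against control 0 passed without any 1 array. With the replicate block the partner counts were 0, 0, 0 and 2, as without it. Clones with the same number did not all deviate together (correlations 0.26 for shRNA 159 and control, -0.05 for shRNA 162 and control, -0.03 for the hairpins). With 2 clones per group this cannot settle whether the numbers pair them.

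Over all rows 537 passed with shRNA 159, 2019 with shRNA 162, 980 for the mean of both and 1836 between the hairpins. Among the brighter rows, those with a mean above the median of the tested rows, these were 946, 3090 and 1992 against control. These counts come from fewer tested rows. With the 4 shRNA clones as 1 group 71 passed and with the hairpin as a random block 27. Without 1 array they ran from 142 to 512, 526 to 2416, 187 to 1138 and 597 to 1352. With the replicate block they were 584, 2128, 1011 and 1983. Of 42 calls of named genes over the 4 comparisons, 30 were lost on leaving out at least 1 array and 12 passed in all 6 such fits, counted without the genes chosen by likeness to CD96. No called direction reversed in any alternative. The 1396 alternative values looked at for this also cover the genes chosen by likeness and comparisons that did not pass. Some values that did not pass changed sign, such as NECTIN4 with shRNA 159 minus control (-0.20 to 0.24 without 1 array).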
